A study of Mus musculus with 6 samples.

Results

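Oxidative phosphorylation subunits were examined as a group of 82 nuclear genes of the 17784 genes in the table. They were chosen by symbol alone. Symbols beginning with Ndufa, Ndufb, Ndufc, Ndufs or Ndufv, Uqcr, Cox4 to Cox8 or Atp5 were included, as were the exact symbols Sdha, Sdhb, Sdhc and Sdhd, while the Ndufaf assembly factors were left out. By respiratory complex, 37 genes belonged to complex I, 4 to complex II, 8 to complex III, 16 to complex IV and 17 to complex V. Ndufa4 and its paralog Ndufa4l2 were placed with complex IV, where the Ndufa4 protein resides, in spite of their complex I symbols. A total of 79 of the 82 genes were expressed highly enough to be tested, out of 12999 tested genes.

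The respiratory chain lies in the inner mitochondrial membrane. Complexes I and II pass electrons from NADH and succinate to coenzyme Q, complex III hands them on to cytochrome c, and complex IV gives them to oxygen, while complexes I, III and IV pump protons whose return through complex V, the ATP synthase, makes ATP. Most subunits are encoded in the nucleus and a few in mitochondrial DNA, and the latter were not analysed here because none of the 13 symbols searched was found. The corneal epithelium has no blood supply and is known to rely heavily on glycolysis beside respiration.

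Bulk RNA-seq was done on corneal epithelial cells released with EDTA from Prrx1-CreERT;Ptch1 f/f mice (Ptch1Prrx1, n = 3 samples) and from control mice (n = 3), labelled WT and ctrl. The study's figure names the controls Ptch1 f/f, which differs from the WT label, so whether they carried the floxed allele is uncertain. Both groups were given 3 doses of tamoxifen, at 10 weeks of age by the labels, and the cells were taken about 2 months later. Prrx1-CreERT is directed at the stromal keratocytes and other ocular mesenchyme, not at the epithelium that was sequenced, and Ptch1 encodes the receptor that holds Hedgehog signaling in check. The comparison therefore asks how the subunit genes of epithelial cells differed when Ptch1 was deleted in the cells beneath them. The paper describes the 3 samples of each group as biological replicates. It was not stated whether each sample was a single mouse or a pool, so the p values measure the spread between these samples.

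Depth was close to even, with 20296741 to 20625813 expected counts per sample. Ptch1 itself had a mean of 619 ± 89.6 normalized counts in controls and 435 ± 41.5 in Ptch1Prrx1 samples (SD, n = 3 each), which were 517, 659 and 682 against 390, 445 and 471, a log2 fold change of -0.51 ± 0.13 (SE) with an adjusted p of 0.0401 by edgeR's quasi-likelihood test. Leaving out either of control replicates 2 and 3 or any one Ptch1Prrx1 sample moved that adjusted p to between 0.0564 and 0.143. These samples are epithelial, so their Ptch1 counts do not show whether the gene was deleted in the stroma. The cause of the difference in Ptch1 was not tested. Ptch1Prrx1 replicate 1 stood apart on the first principal component, at 51.7 against 18.3 and 19.1 for the other two, with the controls between -33.7 and -26.5. The 8 corneal epithelial markers were all found, with a summed level of 105269 to 113601 TPM (a level scaled for gene length and for depth within each sample) in controls and 93291 to 115373 TPM in Ptch1Prrx1 samples, and 1 of them, the basal keratin Krt14, was called (log2 fold change 2.81 ± 0.34, adjusted p = 0.00769, edgeR). Of 9 stromal markers 8 were found, summing to 4.93, 3.34 and 49.99 TPM in controls and 7.74, 6.93 and 3.51 TPM in Ptch1Prrx1 samples. Control replicate 3 alone was high. Of 5 conjunctival and goblet cell markers 4 were found, at 1306 to 2115 TPM against 2018 to 4090 TPM, the highest in replicate 1. The 7 immune markers summed to 127 to 167 TPM against 153 to 207 TPM. The part of these cell types in the results below was not tested, and in bulk samples fewer cells of a type and less RNA per cell cannot be told apart.

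In control epithelium the subunit genes were abundant. They summed to 14806 ± 263 TPM (SD, n = 3), and the most abundant was Ndufa4 at 1287 ± 66.5 TPM, which ranked 98 among all genes. The median control level per gene was 91.3 TPM in complex I, 76.9 in complex II, 169 in complex III, 215 in complex IV and 250 in complex V. The highest member was Ndufb11 in complex I (193 TPM), Sdhb in complex II (166 TPM), Uqcrb in complex III (318 TPM) and Atp5b, the catalytic beta subunit, in complex V (649 TPM). All members of complexes I, II, III and V reached at least 10 TPM, as did 12 of the 16 complex IV genes.

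Summed by complex, transcript levels were lower in all 3 Ptch1Prrx1 samples than in any control for complexes I, II, III and V on the TPM scale. Complex I measured 3697, 3692 and 3619 TPM in controls and 3271, 3226 and 3188 TPM in Ptch1Prrx1 samples, a mean of 88.0% of control. Complex II measured 379, 376 and 366 TPM against 321, 309 and 346 TPM, or 87.0% of control. These 2 sums also did not overlap on the normalized count scale, where they came to 91.0% and 90.9% of control, although the highest Ptch1Prrx1 value of complex I (26551 normalized counts) lay close to the lowest control value (26701). Complex III stood at 91.9% and complex V at 92.1% of control on the TPM scale, but at 95.6% and 96.8% on normalized counts, where the groups overlapped. Even on the TPM scale the highest Ptch1Prrx1 sum of complex V (4764 TPM) lay close to the lowest control sum (4814 TPM). Complex IV overlapped on both scales, at 4529, 4372 and 4404 TPM in controls and 4752, 4074 and 3958 TPM in Ptch1Prrx1 samples. These sums were not tested. Over all genes with a mean of at least 1 TPM the median change was -0.05 on the log2(TPM + 1) scale, against -0.01 in the edgeR fit, so the TPM scale placed genes in general slightly lower.

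**Figure D1:**
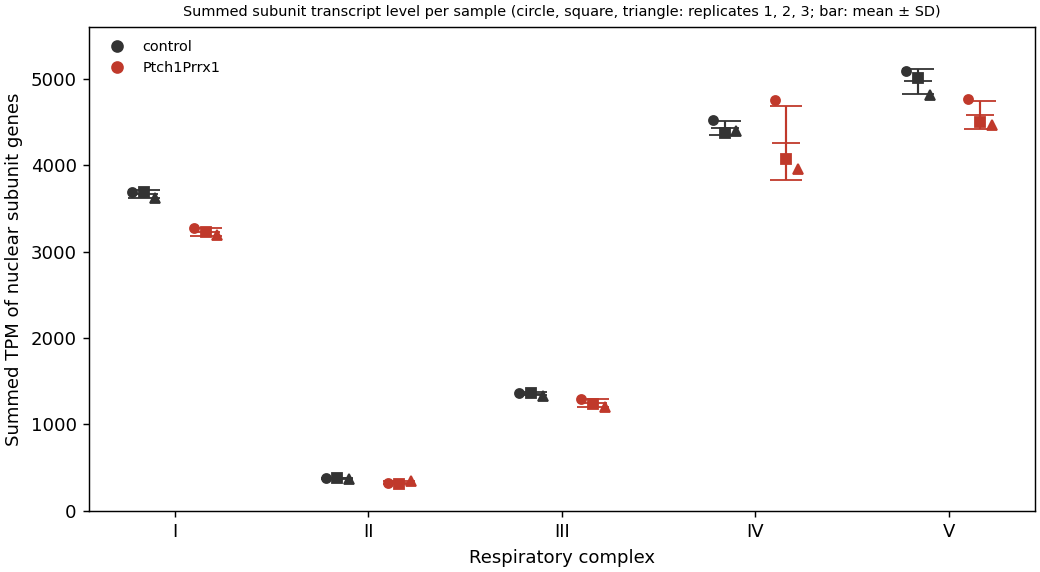
Summed TPM of the nuclear subunit genes of each respiratory complex (y axis, from 0) in the 3 control and 3 Ptch1Prrx1 samples (points), with the mean and SD as bars. Complexes I, II, III and V show no overlap between groups on this scale, at 88.0%, 87.0%, 91.9% and 92.1% of control. In complex IV the sum of Ptch1Prrx1 replicate 1 (4752 TPM) exceeds every control.

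The shift was small and uneven between samples. Of the 79 tested subunit genes 66 had a log2 fold change below 0 and 13 above, or 83.5% below against 51.5% of all tested genes, with a median of -0.11 against -0.01. For each sample the median over the 79 genes was taken of the log2 ratio to the control mean. It was 0.07, -0.02 and -0.06 in controls and 0.01, -0.12 and -0.22 in Ptch1Prrx1 samples. Replicate 1 thus lay within the control range, and the groups overlapped. Ptch1Prrx1 replicate 3 held the lowest of the 6 values for 46 genes and replicate 2 for 19, while control replicate 1 held the highest for 37 genes and Ptch1Prrx1 replicate 1 for 28. Without Ptch1Prrx1 replicate 1 the median became -0.17 with 75 of 80 tested members below 0, without replicate 3 it became -0.06 with 53 of 80 below 0, and without control replicate 1 it became -0.08 with 53 of 80 below 0.

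**Figure D2:**
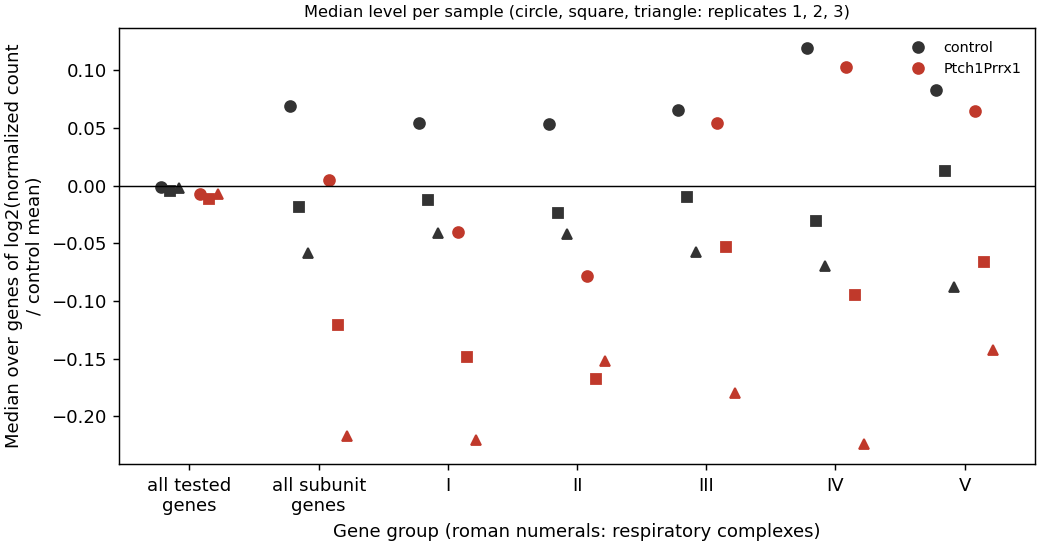
Median over genes of the log2 ratio of the normalized count to the control mean (y axis) for each sample, over all tested genes, all 79 tested subunit genes and the members of each complex (x axis). All tested genes stay near 0 in every sample, whereas the subunit medians spread from 0.07 in control replicate 1 to -0.22 in Ptch1Prrx1 replicate 3.

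No subunit gene changed by at least 2-fold with an adjusted p no higher than 0.05, a rule that called 3.23% of all tested genes. Without the fold requirement 4 subunit genes were lower, or 5.06%, beside 6.41% of all tested genes, and 0 were higher, beside 7.61%. The share that was lower is thus near that of genes in general. The 4 genes came from 4 different complexes, namely Ndufa7, Sdhb, Cox7a2l and Atp5h. At an unadjusted p of at most 0.05, 14 of the 79 tested members were lower, where 16.5% of all tested genes were. That lower share is also near that of genes in general. At the same level 0 members were higher, where 2208 of the 12999 tested genes were, so only the higher side departed from genes in general. Normalized counts of 24 members (30.4%) were lower in every Ptch1Prrx1 sample than in every control, beside 20.3% of all tested genes, and those of 1 member (1.27%) were higher in every sample, beside 19.7%. Values of single genes ranged from a log2 fold change of -0.63 for Cox7a1 to 0.22 for Ndufc1, the latter named after its values were seen.

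**Figure D3:**
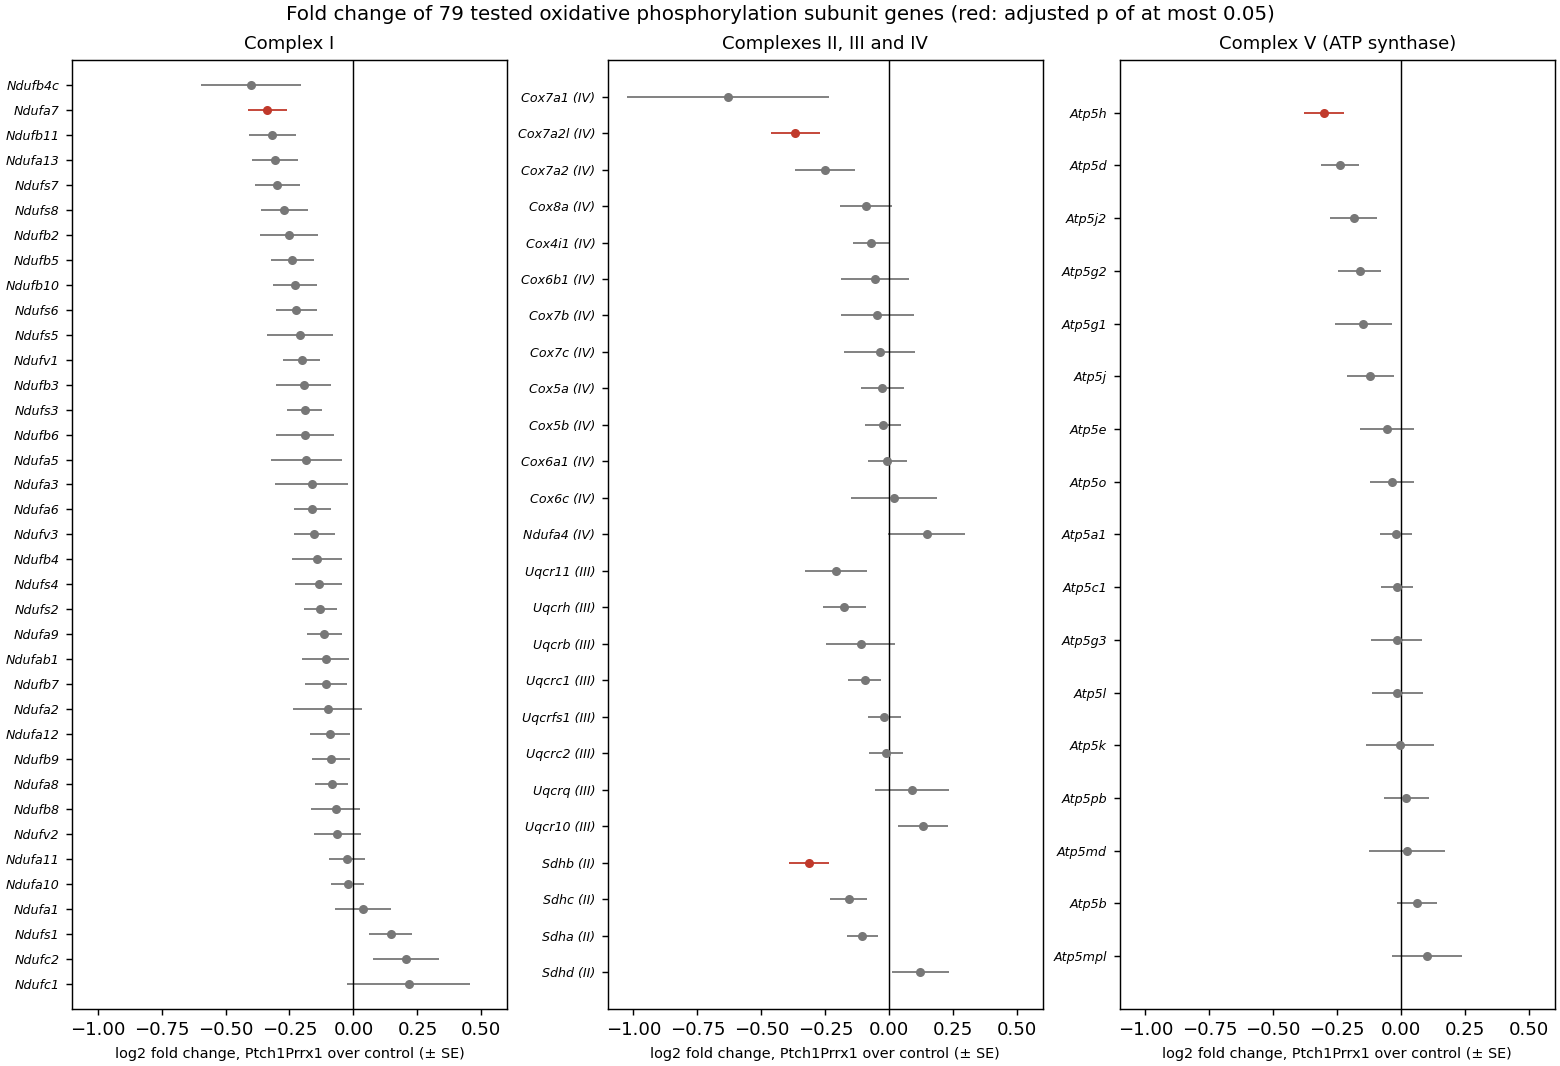
Log2 fold change of Ptch1Prrx1 over control (x axis, edgeR, bars give the SE) for each of the 79 tested subunit genes (y axis), by complex. Points in red passed an adjusted p of 0.05. In complex I 33 of 37 genes lie below 0 (89.2%, beside 51.5% of all tested genes). The share below 0 is 75.0% in complexes II and III, 84.6% in complex IV and 76.5% in complex V. Most of the 17 complex V genes lie close to 0.

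Of the 24 members that were lower without overlap, 17 belonged to complex I, which held 37 of the 79 tested members. The median over its genes was -0.15 on the log2 scale. In all, 33 of 37 (89.2%) lay below 0, beside 51.5% of all tested genes. Most genes of each other complex also lay below 0, at 75.0% in complexes II and III, 84.6% in complex IV and 76.5% in complex V. The 17 complex I genes lower without overlap of the groups were 45.9% of complex I, beside 20.3% of all tested genes. The 7 nuclear core subunits, which hold the flavin and the iron-sulfur clusters or lie next to coenzyme Q, had a median of -0.19, and 5 of them were lower without overlap. The 30 supernumerary subunits had a median of -0.15, with 12 lower without overlap. The lower genes thus came from both classes. Leaving out a single sample moved the complex I median to between -0.19 and -0.09.

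Ndufa7, a supernumerary complex I subunit, was the one complex I gene to pass the test. It measured 87.0, 90.3 and 91.4 TPM in controls and 65.1, 72.0 and 70.0 TPM in Ptch1Prrx1 samples. The groups were well apart, and the log2 fold change was -0.34 ± 0.08 (adjusted p = 0.0311, edgeR). Ndufb11, a supernumerary subunit of the membrane arm, had 211, 187 and 182 TPM against 145, 143 and 164 TPM, with no overlap, but its adjusted p was 0.0570 (log2 fold change -0.32 ± 0.09, edgeR). DESeq2 (adjusted p = 0.0286) and limma on log2(TPM + 1) with the filter on low TPM (adjusted p = 0.0380) put it past the threshold. Ndufs7, a core subunit that binds an iron-sulfur cluster, had 89.7, 100.1 and 84.2 TPM against 68.0, 72.6 and 76.1 TPM, with an adjusted p of 0.0591 (log2 fold change -0.30 ± 0.09, edgeR) and of 0.0444 with the same limma fit. Ndufb9, one of the most abundant members, differed less, with 168, 174 and 170 TPM against 155, 163 and 152 TPM and a log2 fold change of -0.09 ± 0.07 (adjusted p = 0.450). One core gene went the other way without overlap. Ndufs1, the largest core subunit and named here after its values were seen, had 820, 811 and 852 normalized counts in controls and 1016, 861 and 869 in Ptch1Prrx1 samples, a log2 fold change of 0.15 ± 0.09 with an adjusted p of 0.272.

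Complex II is also the succinate dehydrogenase of the tricarboxylic acid cycle, and its 4 genes did not share a direction. Sdhb, the iron-sulfur subunit, was lower at 174, 167 and 158 TPM in controls and 122, 126 and 144 TPM in Ptch1Prrx1 samples, with a log2 fold change of -0.31 ± 0.08 (adjusted p = 0.0407, edgeR). The flavoprotein Sdha had 96.1, 94.4 and 97.9 TPM against 85.9, 83.8 and 91.1 TPM (log2 fold change -0.11 ± 0.06, adjusted p = 0.256). The membrane anchor Sdhc had 54.0, 52.3 and 54.1 TPM against 46.1, 46.0 and 47.5 TPM (log2 fold change -0.16 ± 0.07, adjusted p = 0.171). Both Sdha and Sdhc were lower in all 3 samples without passing the test. Sdhd, the other anchor, had 54.9, 62.0 and 56.6 TPM against 66.8, 52.9 and 63.4 TPM, and its groups overlapped.

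No gene of complex III passed the test, and the median log2 fold change of its 8 genes was -0.06. Uqcrh, the hinge protein, was the one member without overlap, at 197, 184 and 184 TPM in controls and 166, 161 and 161 TPM in Ptch1Prrx1 samples (log2 fold change -0.18 ± 0.08, adjusted p = 0.187). Uqcr11, a small accessory subunit, had a log2 fold change of -0.21 ± 0.12 (adjusted p = 0.272). Uqcrc1, a core protein, had -0.10 ± 0.07 (adjusted p = 0.340). The abundant Uqcrb had -0.11 ± 0.13 (adjusted p = 0.596) and turned to 0.01 without Ptch1Prrx1 replicate 3.

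Complex IV, cytochrome c oxidase, is built with alternative isoforms in several positions, and transcripts of the ubiquitous ones prevailed. Cox4i1 had 429, 390 and 402 TPM in controls and 370, 375 and 388 TPM in Ptch1Prrx1 samples, lower in all 3 samples on the TPM scale but overlapping on normalized counts (log2 fold change -0.07 ± 0.07, adjusted p = 0.526). Its paralog Cox4i2, known from lung, had 0, 0 and 1 expected counts in controls and 0, 1 and 0 in Ptch1Prrx1 samples, under the floor of 3 counts, so no fold is given. Cox6b1 averaged 389 TPM in controls, while the testis isoform Cox6b2 had 13, 15 and 10 expected counts against 6, 6 and 4. Cox6b2 was too low for the edgeR filter. With limma on log2(TPM + 1) it was lower (difference -0.77 on that scale, adjusted p = 0.0299). The symbols Cox6a2, Cox7b2, Cox8b and Cox8c were among 20 searched for isoforms, of which 16 were found, and these 4 were not analysed here.

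In the Cox7a group all 3 genes had log2 fold changes below 0, and 1 passed the test. Cox7a2l, which encodes a factor that joins complexes III and IV into supercomplexes and is not a regular subunit, had 412, 346 and 345 TPM in controls and 265, 275 and 295 TPM in Ptch1Prrx1 samples. The groups were apart, with a log2 fold change of -0.37 ± 0.10 (adjusted p = 0.0457, edgeR). Cox7a2, the ubiquitous isoform, had 92.8, 86.6 and 85.2 TPM against 78.0, 73.1 and 64.4 TPM (log2 fold change -0.25 ± 0.12, adjusted p = 0.179). Cox7a1, the heart and muscle isoform, was near 6 TPM in every control (6.11, 6.63 and 6.31) and had 5.77, 2.00 and 4.07 TPM in Ptch1Prrx1 samples, with a log2 fold change of -0.63 ± 0.39 that did not pass (adjusted p = 0.301). Of the 9 striated muscle markers, Cox7a1 among them, 5 were found, summing to 8.96 to 9.64 TPM in controls and 6.24 to 8.50 TPM in Ptch1Prrx1 samples. Cox7a1 made up most of the control sum, so this sum says little about muscle apart from Cox7a1 itself. The only other muscle marker that was tested had a log2 fold change of 0.05. The other isoform genes Cox6a1, Cox6c, Cox7b and Cox8a lay between -0.09 and 0.02 on the log2 scale, with adjusted p values from 0.572 to 0.958.

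Ndufa4 set the complex IV sum apart. It had 1228, 1274 and 1359 TPM in controls and 1665, 1279 and 1184 TPM in Ptch1Prrx1 samples, so that replicate 1 lay above and replicate 3 below every control (log2 fold change 0.15 ± 0.15, adjusted p = 0.531). Without Ptch1Prrx1 replicate 1 its log2 fold change was -0.05. The remaining 15 complex IV genes summed to 91.6% of control on the TPM scale, and the groups still overlapped. Its paralog Ndufa4l2, known as a target of the hypoxia-inducible factor, was scarce, with 8, 6 and 4 expected counts in controls and 91, 9 and 19 in Ptch1Prrx1 samples. All 3 Ptch1Prrx1 values exceeded the controls, and replicate 1 supplied most of the difference. The gene did not enter the edgeR test. With every gene of at least 1 count fitted, its adjusted p was 0.0816 (log2 fold change 2.75 ± 0.86), and over the leave-one-out fits that retained it the adjusted p ran from 0.0479 without Ptch1Prrx1 replicate 2 to 0.212 without control replicate 2.

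**Figure D4:**
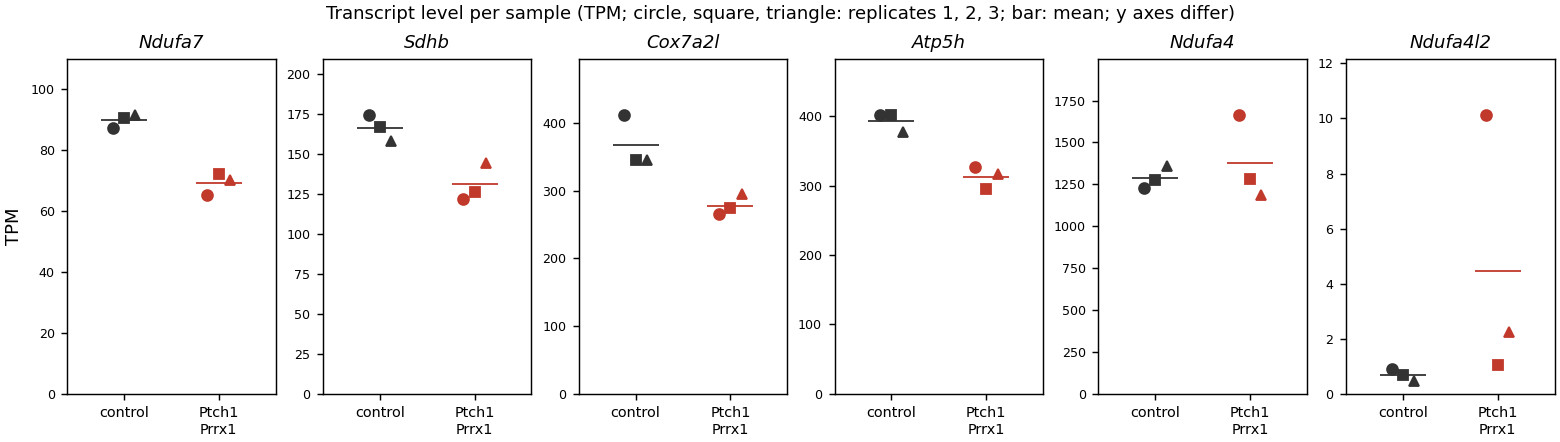
TPM (y axes, from 0, each on its own scale) in each control and Ptch1Prrx1 sample for the 4 subunit genes that passed an adjusted p of 0.05 and for Ndufa4 and Ndufa4l2, with the group mean as a bar. The first 4 genes show no overlap between the groups, whereas Ndufa4 and Ndufa4l2 are highest in Ptch1Prrx1 replicate 1 (1665 and 10.1 TPM).

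The median log2 fold change of the 17 ATP synthase genes was -0.02. Without Ptch1Prrx1 replicate 1 it was -0.12, and that of complex IV moved from -0.05 to -0.20. Atp5h, subunit d of the peripheral stalk, was the one to pass, at 402, 401 and 377 TPM in controls and 326, 295 and 317 TPM in Ptch1Prrx1 samples. The groups were apart, with a log2 fold change of -0.30 ± 0.08 (adjusted p = 0.0454, edgeR). Atp5d, the delta subunit of the central stalk, had 520, 521 and 479 TPM against 408, 428 and 419 TPM, without overlap, and narrowly missed the threshold (log2 fold change -0.24 ± 0.07, adjusted p = 0.0662, edgeR), which it passed with DESeq2 (adjusted p = 0.0358). Atp5j2, subunit f of the membrane part, had -0.19 ± 0.09 (adjusted p = 0.202). Atp5b had 628, 671 and 647 TPM against 678, 662 and 632 TPM and a log2 fold change of 0.06 ± 0.08 (adjusted p = 0.623). By position, the 5 genes of the catalytic head and central stalk (F1) had a median of -0.02, the 4 of the peripheral stalk -0.08 and the 5 other membrane subunits 0.00.

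Subunit c, which forms the rotor ring, is encoded by 3 genes for the same mature protein. Atp5g2 was the most abundant, with 529, 490 and 458 TPM in controls and 424, 419 and 444 TPM in Ptch1Prrx1 samples (log2 fold change -0.16 ± 0.08, adjusted p = 0.220). Atp5g1 averaged 172 TPM in controls and 150.4 TPM in Ptch1Prrx1 samples (log2 fold change -0.15 ± 0.11, adjusted p = 0.394). Atp5g3 averaged 245 and 235 TPM (log2 fold change -0.02 ± 0.10, adjusted p = 0.922). The groups overlapped for all 3 genes on normalized counts.

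The calls of the 4 lower genes were close to the threshold. Leaving out any 1 of the 6 samples ended all of them, except that Atp5h remained without Ptch1Prrx1 replicate 1, while each log2 fold change stayed negative, between -0.37 and -0.31 for Ndufa7, -0.37 and -0.25 for Sdhb, -0.43 and -0.25 for Cox7a2l and -0.36 and -0.26 for Atp5h. With limma on log2(TPM + 1) and no filter, Sdhb (adjusted p = 0.0588) and Cox7a2l (adjusted p = 0.0555) also missed the threshold, and with the replicate number as a block Sdhb did (adjusted p = 0.0591). Over all genes the fits with 1 sample fewer also counted fewer lower genes, between 25 and 572 in place of 833.

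The promoter sequences of these 4 genes are shown for the motifs that respiratory genes are known to carry, beside that of Cox6a1, which held 2 such motifs while its level was nearly even between groups (log2 fold change -0.01 ± 0.08). Each line gives the 170 bases before the transcription start from RefSeq (GRCm38.p6), 5′ to 3′ on the gene's strand, with matches to a searched motif in capitals. The start windows are chr17:33824402-33824571 (plus strand) for Ndufa7, chr4:140961101-140961270 (plus strand) for Sdhb, chr17:83514334-83514503 (minus strand) for Cox7a2l, chr11:115419920-115420089 (minus strand) for Atp5h and chr5:115348959-115349128 (minus strand) for Cox6a1.
Ndufa7: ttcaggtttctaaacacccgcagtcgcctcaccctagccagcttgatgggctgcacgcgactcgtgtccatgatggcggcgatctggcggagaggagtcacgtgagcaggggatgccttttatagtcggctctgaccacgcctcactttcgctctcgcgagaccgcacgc
Sdhb: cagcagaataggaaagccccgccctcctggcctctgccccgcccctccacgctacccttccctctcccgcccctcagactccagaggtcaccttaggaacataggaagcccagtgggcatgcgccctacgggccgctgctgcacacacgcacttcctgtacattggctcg
Cox7a2l: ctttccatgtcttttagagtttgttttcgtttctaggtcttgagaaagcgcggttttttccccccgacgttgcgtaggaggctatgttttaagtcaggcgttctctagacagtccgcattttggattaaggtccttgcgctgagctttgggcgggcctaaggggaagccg
Atp5h: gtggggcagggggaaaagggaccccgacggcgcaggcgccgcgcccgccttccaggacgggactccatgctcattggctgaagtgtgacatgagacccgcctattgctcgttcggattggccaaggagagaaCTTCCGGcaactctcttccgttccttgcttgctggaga
Cox6a1: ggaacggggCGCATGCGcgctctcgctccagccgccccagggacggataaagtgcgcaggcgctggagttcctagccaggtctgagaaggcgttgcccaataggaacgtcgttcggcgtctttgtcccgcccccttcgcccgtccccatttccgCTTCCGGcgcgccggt

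The 3 motifs were searched on both strands from 250 bases before to 50 after the start, and 67 of the 82 members had an entry. CCGGAAG, bound by ETS factors such as GABP, was in 16 of 67 member promoters (23.9%), beside 9.12% of all 27025 promoters and 18.0% of the 10418 of tested genes. CGCATGCG, bound by NRF1 and the same on both strands, was in 8 (11.9%, beside 1.91% and 3.85%). AAGATGGC, bound by YY1, was in 9 (13.4%, beside 2.88% and 4.64%). In the sequences above, Atp5h held the ETS motif at positions -38 to -32 from the start, and Cox6a1 held the ETS motif at -16 to -10 and the NRF1 motif at -161 to -154. Sdhb held an ETS match just after the start, outside the stretch printed, while Ndufa7 and Cox7a2l held none of these letters in the window. The medians with and without a match were alike. Among the 29 with any match the median was -0.11 on the log2 scale, with 9 (31.0%) lower without overlap. Among the 37 tested members without a match it was -0.12, with 12 (32.4%). Of all tested genes 20.3% were lower without overlap. The bearing of the motifs on these changes was not tested.

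Among 17 regulators of mitochondrial genes, 3 rose and 1 fell at an adjusted p of at most 0.05, and the median log2 fold change was 0.01. Over all tested genes 7.61% were higher and 6.41% lower at that level, so the 1 lower regulator (5.88%) is at the share of genes in general. The 3 of 17 that rose are a larger share than 7.61%. The list is short and was chosen with earlier results of these data known, so no conclusion is drawn from that share. Ppargc1a, the coactivator PGC-1alpha that promotes respiratory gene expression, was low, at 31.8, 37.4 and 34.9 normalized counts in controls and 16.5, 18.5 and 17.9 in Ptch1Prrx1 samples. It fell by 0.97 ± 0.23 on the log2 scale (adjusted p = 0.0346, edgeR), a call that each omission of a sample ended (adjusted p from 0.0740 to 0.138) and that DESeq2 did not make (adjusted p = 0.0777). The related coactivator Pprc1 rose by 0.45 ± 0.10 (adjusted p = 0.0308), at 787, 797 and 739 normalized counts against 1203, 1041 and 934. Myc, a growth regulator that also acts on mitochondrial genes, rose by 0.91 ± 0.15 (adjusted p = 0.0153), from 702, 658 and 705 to 1622, 1222 and 1037. Hif1a, the oxygen-regulated factor that favors glycolysis, rose by 0.42 ± 0.08 (adjusted p = 0.0213), from 2503, 2467 and 2298 to 3517, 2929 and 3271. The values of these 3 were highest in Ptch1Prrx1 replicate 1. The call of Myc was lost without control replicate 2 (adjusted p = 0.0803), that of Hif1a without any one control (0.0541 to 0.0917), and that of Pprc1 without any one control or Ptch1Prrx1 replicate 2 (0.0639 to 0.103).

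The factors that bind the 3 motifs did not pass. Nrf1 had a log2 fold change of 0.25 ± 0.09 (adjusted p = 0.110), with all 3 Ptch1Prrx1 samples above the controls. Gabpa had 0.03 and its partner Gabpb1 0.11, and Yy1 had 0.02 (adjusted p = 0.755, 0.447 and 0.822). Esrra, the nuclear receptor through which PGC-1alpha acts, had -0.21 ± 0.07 (adjusted p = 0.0814), with 1292, 1300 and 1247 normalized counts against 1178, 1099 and 1043. Ppargc1b, the other PGC-1 coactivator, had 0.21 ± 0.20 (adjusted p = 0.493). Of the genes that copy and transcribe mitochondrial DNA, Tfb2m (-0.21), Polrmt (-0.24), Tfb1m (-0.17), Polg2 (-0.16), Tfam (-0.09), Twnk (-0.07) and Polg (0.01) had adjusted p values from 0.104 to 0.914.

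The assembly factors, which build the complexes without remaining in them, had a median of -0.11, as the subunits did, with 39 of 48 tested genes (81.3%) below 0, beside 51.5% of all tested genes. Of the 48, 4 fell (8.33%, beside 6.41% of all tested genes) and 1 rose (beside 7.61%), counts near or under those of genes in general. Coa4, needed for complex IV, fell by 0.61 ± 0.13 on the log2 scale (adjusted p = 0.0262), at 158, 172 and 190 normalized counts in controls and 109, 111 and 121 in Ptch1Prrx1 samples. Acad9, a complex I assembly factor, fell by 0.32 ± 0.08 (adjusted p = 0.0364), and Bcs1l, which inserts the Rieske protein into complex III, fell by 0.36 ± 0.09 (adjusted p = 0.0412). The complex III factors Uqcc3 (-0.40 ± 0.11, adjusted p = 0.0484) and Uqcc2 (0.38 ± 0.10, adjusted p = 0.0498) went in opposite directions and were named after their values were seen. Cyc1, the complex III subunit outside the symbol rule, and Cycs, cytochrome c, had log2 fold changes of 0.02 and 0.05 (adjusted p = 0.887 and 0.760).

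Coenzyme Q carries electrons from complexes I and II to complex III. Of the 13 genes of its synthesis, 10 (76.9%, beside 51.5% of all tested genes) were below 0, with a median of -0.18. At an adjusted p of at most 0.05, 2 of the 13 fell (15.4%, beside 6.41% of all tested genes) and 0 rose. Coq2, the prenyltransferase that joins the ring to its tail, fell by 0.60 ± 0.07 on the log2 scale (adjusted p = 0.00769), from 821, 872 and 845 normalized counts to 540, 546 and 592. Its adjusted p was 0.0526 without control replicate 2 and at most 0.05 with any other sample left out. Coq4 fell by 0.43 ± 0.11 (adjusted p = 0.0417), and Pdss1, which makes the tail, had 0.77 ± 0.24 (adjusted p = 0.0720). In the tricarboxylic acid cycle and pyruvate dehydrogenase, 2 of 17 genes fell (11.8%, beside 6.41% of all tested genes) and 0 rose (beside 7.61%), with a median of -0.03. Ogdh, a subunit of oxoglutarate dehydrogenase, fell by 0.39 ± 0.07 (adjusted p = 0.0182), from 5965, 6563 and 6740 normalized counts to 4679, 5026 and 4962. Pdhx, a pyruvate dehydrogenase component, also fell by 0.39 ± 0.10 (adjusted p = 0.0435), and Idh3a, a subunit of isocitrate dehydrogenase, had 0.23 ± 0.08 (adjusted p = 0.0832).

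Mitochondrial ribosomal proteins, which serve translation of the mitochondrially encoded subunits, had a median of -0.02 over 78 genes, of which 2 fell and 0 rose. The share that fell (2.56%) is below the 6.41% of all tested genes. Mrpl49 fell by 0.43 ± 0.09 (adjusted p = 0.0242) and Mrps33 by 0.26 ± 0.07 (adjusted p = 0.0460), while Mrpl12 had 0.28 ± 0.08 (adjusted p = 0.0648). None of the 23 import genes passed the edgeR test, and their median was 0.00. Only 2 of them, Timm17b (-0.20 ± 0.08) and Tomm7 (-0.27 ± 0.11), had an unadjusted p of at most 0.05. Both were lower, where 16.5% of all tested genes were lower at that level. Leaving out 1 sample ended most of the calls of assembly, coenzyme Q, cycle and ribosomal genes. Those of Bcs1l, Uqcc3, Coq4 and Mrps33 were lost with each of the 6 omissions, those of Acad9, Uqcc2, Pdhx and Mrpl49 with 5, that of Coa4 with 4 and that of Ogdh with 2, and each change kept its sign. A list of cytosolic ribosomal proteins, added after the data were seen, also had 60 of 80 genes below 0 (75.0%, beside 51.5% of all tested genes). Its median was -0.07, and 0 were called in either direction at an adjusted p of at most 0.05 (edgeR). At an unadjusted p of at most 0.05, 3 were lower, where 16.5% of all tested genes were.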

How the data were processed

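RNA from EDTA-released corneal epithelial cells of 3 control and 3 Ptch1Prrx1 samples was sequenced, and groups and replicate numbers follow the labels. For the deposited values the authors used Bowtie2 2.2.5 for alignment and RSEM 1.2.12 for quantification, and the submitters' processing notes name build mm9. The authors deposited RSEM expected counts, TPM and FPKM per gene and sample. FPKM and the authors' group means were not used, and the number of other per-sample columns was 0. TPM is scaled within a sample, so a rise of a few abundant genes lowers all others.

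Expected counts were rounded and fitted over all genes passing filterByExpr (12999) with edgeR 4.0.16 (TMM factors 0.960 to 1.03, quasi-likelihood test) in R 4.3.3, with Benjamini-Hochberg adjustment over them. Calls required at least 2-fold with an adjusted p no higher than 0.05, the thresholds of the study, and also counted without the fold limit. SE is the absolute log2 fold change over the square root of F. Normalized counts are CPM on TMM-scaled libraries times their mean size (20443700). The floor of 3 counts corresponds to 0.142 to 0.152 CPM and covers counting error only. No samples looked like the same library deposited again (chi-square over its degrees of freedom 10.5 to 40.0 within groups).

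Genes named are, per complex, the 3 with the smallest p and the 2 most abundant, the isoform groups, complex II, all electron carriers and regulators, and up to 3 genes of each other list. Members and lists were chosen with earlier results of these data known. RSEM divides reads that fit several genes, so genes with close copies or pseudogenes, such as Ndufb4 and Ndufb4c, are less certain. Alternatives were RLE and upper-quartile factors, DESeq2 1.42.0, limma-voom and limma 3.58.1 on log2(TPM + 1) and log2(TPM + 0.1), other filters and thresholds, a replicate block and leaving out each sample. Promoters came from RefSeq (GRCm38.p6), the first listed per gene, and no coordinates were converted from mm9.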

Additional observations from a re-analysis of the deposited data

How the results depend on the processing

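The median log2 fold change of the subunit genes was below 0 under every alternative run, between -0.17 and -0.06, and the median of complex I between -0.19 and -0.09. The medians of complexes IV and V turned to 0.00 and 0.01 without control replicate 1 and without Ptch1Prrx1 replicate 3, respectively, so no direction is given for these medians. The count of genes called at least 2-fold was 420, and it was 234 with limma on log2(TPM + 1), 168 on the same scale with no filter, and 59 to 430 with 1 sample left out, the lowest without control replicate 2. The count of lower subunit genes was 4, and it was 6 with DESeq2 (Ndufb11 and Atp5d added), 11 with limma on log2(TPM + 1) and 11 on log2(TPM + 0.1), 13 at an adjusted p of at most 0.1, and 0 to 1 with 1 sample left out. Higher subunit genes numbered 0 to 1 with 1 sample left out, the 1 being Ndufa4l2 without Ptch1Prrx1 replicate 2. On the TMM-scaled CPM sum the ratio to control was 0.910 for complex I and 0.968 for complex V, and with Ndufa4 and Ndufa4l2 counted in complex I its ratio was 0.930. The cause of these shifts was not tested.

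Named genes whose log2 fold change turned sign with 1 sample left out ran from -0.25 to 0.015 (Uqcrb), -0.052 to 0.27 (Ndufa4), -0.058 to 0.046 (Cox6a1), -0.20 to 0.062 (Cox6b1), -0.13 to 0.15 (Cox6c), -0.21 to 0.083 (Cox7b), -0.12 to 0.041 (Atp5g3), -0.027 to 0.076 (Cyc1), -0.059 to 0.12 (Cycs), -0.012 to 0.049 (Yy1), -0.037 to 0.051 (Polg) and -0.16 to 0.026 (Twnk). With limma on log2(TPM + 1), with or without the filter, Cox6c (-0.026), Cyc1 (-0.015), Gabpa (-0.0041) and Polg (-0.026) were below 0, as they were on log2(TPM + 0.1), at -0.026, -0.015, -0.0042 and -0.028 in the same order.

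Samples sharing a replicate number did not deviate together (correlations of 0.11, -0.01 and 0.02), so the numbers were not taken as pairs. With a replicate block, 390 genes were called, 4 subunit genes were lower and 0 higher, and their median was -0.11. With the block the adjusted p was 0.0591 for Sdhb and 0.0458 for Atp5d. Cox4i2, Cox6b2 and Ndufa4l2 rested on few counts.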
